A study of Homo sapiens with 8 samples.

Results

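The squamous lineage transcription factors described here are TP63, SOX2, PAX9, KLF4, GRHL1, GRHL3, ZNF750, OVOL1, PRDM1 and ELF3, 10 genes taken by symbol from the 25369 genes of the deposited expression table. RNA sequencing was done on EPC2-hTERT cells, keratinocytes of the human esophagus made immortal by telomerase. A stable line carrying a lentiviral short hairpin RNA against HIF1A (HIF1A-KD) was set against a stable line carrying a control hairpin RNA (shCtrl), and each line gave 4 libraries, which the labels number 1 to 4. Both were raised as air-liquid interface cultures, in which keratinocytes stratify: 2 days to confluence on a 0.4 µm pore support, then 5 days of 1.8 mM calcium chloride, then 4 days exposed to air. HIF1A codes for HIF-1α, the part of the HIF-1 factor that oxygen destabilises, and the study concerns its place in epithelial differentiation in eosinophilic esophagitis, an allergic disease of the esophagus. The protocol also names an 18 h treatment with a vehicle or 1 mM dimethyloxalylglycine, which blocks the degradation of HIF-1α, and no label assigns either to a library. The labels do not say whether a line is a single clone or whether the libraries came from separate cultures, so p-values measure only the spread between these libraries.

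Stratified squamous epithelium renews from a basal layer and differentiates as cells move outwards. TP63, a relative of p53, and SOX2 and PAX9, factors of foregut and oral epithelium, are known for basal and esophageal identity. KLF4, ZNF750, PRDM1, the grainyhead-like factors GRHL1 and GRHL3, OVOL1 and ELF3 are known for roles in suprabasal differentiation, with its envelope, keratin and junction genes. PRDM1 and OVOL1 among them are repressors. TP63 has alternative promoters that give TA and ΔN proteins, and values per gene do not separate them.

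Because the hairpin targets a DNA-binding factor, the promoters of the 10 genes were searched for ACGTG, the core of the HIF binding site, on both strands. RefSeq promoters (GRCh38.p14, 250 bases before to 50 bases after a start) were at hand for 8 of them, with 11 promoters in all. ZNF750 and OVOL1 had none in the table. TP63 had only 1, so its alternative promoters were not all searched. ACGTG occurred in 3 of the 11 promoters, 1 each of KLF4, PRDM1 and PAX9, and in 21.4% of all 35116 promoters of this length. SOX2, whose transcript had the largest estimated change, is shown beside them, and capitals mark ACGTG or its reverse complement.
SOX2: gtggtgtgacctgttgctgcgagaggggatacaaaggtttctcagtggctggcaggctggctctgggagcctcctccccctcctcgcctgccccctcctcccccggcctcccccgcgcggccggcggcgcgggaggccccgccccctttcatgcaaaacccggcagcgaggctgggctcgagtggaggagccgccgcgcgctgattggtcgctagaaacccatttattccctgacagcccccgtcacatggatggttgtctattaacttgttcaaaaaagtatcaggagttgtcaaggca
KLF4: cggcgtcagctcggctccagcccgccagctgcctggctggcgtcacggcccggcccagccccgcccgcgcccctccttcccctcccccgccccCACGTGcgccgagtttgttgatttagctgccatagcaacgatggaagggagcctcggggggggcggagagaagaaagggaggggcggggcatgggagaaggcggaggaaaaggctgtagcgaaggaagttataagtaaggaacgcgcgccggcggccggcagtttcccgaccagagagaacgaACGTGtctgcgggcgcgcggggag
PRDM1: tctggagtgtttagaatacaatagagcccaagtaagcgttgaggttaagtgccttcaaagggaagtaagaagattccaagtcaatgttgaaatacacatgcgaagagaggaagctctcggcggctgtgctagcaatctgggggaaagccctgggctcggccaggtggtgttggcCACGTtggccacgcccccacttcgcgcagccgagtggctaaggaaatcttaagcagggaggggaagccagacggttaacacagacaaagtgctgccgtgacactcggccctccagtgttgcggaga
PAX9: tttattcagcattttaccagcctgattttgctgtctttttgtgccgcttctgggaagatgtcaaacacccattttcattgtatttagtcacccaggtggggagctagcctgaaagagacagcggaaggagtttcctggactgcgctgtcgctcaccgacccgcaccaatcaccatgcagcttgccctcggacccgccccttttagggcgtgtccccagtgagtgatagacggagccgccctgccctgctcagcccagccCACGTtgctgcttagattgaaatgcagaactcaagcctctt
The SOX2 sequence is chr3:181711675-181711974 on the plus strand, the KLF4 sequence chr9:107489720-107490019 on the minus strand, the PRDM1 sequence chr6:106086086-106086385 on the plus strand and the PAX9 sequence chr14:36661610-36661909 on the plus strand. In KLF4 the motif lay at bases 95 and 277 of the sequence, and at base 95 it is part of a palindrome that matches on both strands. The SOX2 window held no match. A core of KLF sites, CACCC on either strand, was found in 6 of the 11 promoters (of GRHL3, ELF3, PRDM1 and PAX9) and in 59.9% of all promoters. The grainyhead-like consensus AACCGGTT was in none of the 11 and in 0.134% of all promoters. The AP-1 consensus TGANTCA was in 1, a PRDM1 promoter, and in 7.71% of all. These are matches of letters in a window and not measured sites.

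The values are RPKM, reads scaled by gene length and by the library's read total, and the read totals they imply ran from 38068729 to 65326907. The targeted transcript HIF1A averaged 36.6 ± 16.3 RPKM in HIF1A-KD and 89.7 ± 29.2 RPKM in shCtrl (SD, n = 4 each). It was lower in HIF1A-KD in all 4 numbers, and passed the test of all genes only with the library number as a block (limma adjusted p = 0.0253, against 0.319 without it). Here and below libraries are paired by number, on the data and not on a label, and the pairing of numbers 3 and 4 is uncertain. The blocked call of HIF1A was lost without HIF1A-KD 1 (adjusted p = 0.108), 2 (0.188) or 4 (0.0521), or without shCtrl 1 (0.109) or 2 (0.184). In the authors' deposited table, made from the same libraries, HIF1A has a log2 fold change of −1.37 (adjusted p = 7e-12). The cells carried squamous markers: all 12 listed genes, KRT5, KRT14, KRT4 and KRT13 among them, were measured, with a summed level of 32040 to 44750 RPKM in HIF1A-KD and 35300 to 46910 RPKM in shCtrl. Of 8 fibroblast markers 7 averaged under 1 RPKM (list sum 14.1 to 19.2 RPKM in HIF1A-KD and 21.2 to 27.7 RPKM in shCtrl, nearly all COL1A1, with THY1 at 0), and of 9 leukocyte markers 7 did (25.3 to 87.9 RPKM in HIF1A-KD and 33.6 to 117 RPKM in shCtrl, largely CD68, with PTPRC and CD3E at 0). Of 5 endothelial markers 4 averaged under 1 RPKM (1.39 to 12.8 RPKM in HIF1A-KD and 0.753 to 15.6 RPKM in shCtrl, largely VWF), as did all 5 melanocyte markers (0.719 to 2.08 RPKM in HIF1A-KD and 0.517 to 1.12 RPKM in shCtrl, with MLANA and TYR at 0). COL1A1 and CD68 were each lower in HIF1A-KD in all 4 numbers, though neither passed the test (limma adjusted p with the block 0.0920 for COL1A1 and 0.212 for CD68), and the part of the cells behind these markers in the results was not tested. Libraries numbered 1 and 2 parted from those numbered 3 and 4 along the principal component with 41.9% of the variance, a split that no label names.

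No member passed the test of HIF1A-KD against shCtrl. In limma on log2(RPKM + 0.1) over the 11899 tested genes (Benjamini-Hochberg), 0 of the 10 were called, against 0.0420% of all tested genes. With the library number as a block 0 of 10 were called, against 1.83% of all tested genes (0.740% higher and 1.09% lower). By limma-voom on the reads recovered from the deposited values the count was also 0, against 0.0254%. At an unadjusted limma p under 0.05 stood 2 members (SOX2 and ELF3) in the unpaired test, against 7.80% of all tested genes. With the block 3 did (ZNF750 too), against 19.6% of all tested genes. A positive estimate was found for 9 of the 10 and a negative one for TP63 (GRHL3 also turned negative, at −0.001, under median-of-ratios scaling), where 58.7% of all tested genes had a positive one, and the median log2 change was 0.30 over the members and 0.06 over all tested genes. The groups overlapped for every member, while they did not for 5.40% of tested genes (3.27% with HIF1A-KD above). Transcripts of bulk cultures were measured, so fewer cells of a layer and less RNA per cell cannot be told apart. The pseudocount of 0.1 RPKM understates changes of low genes.

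**Figure D1:**
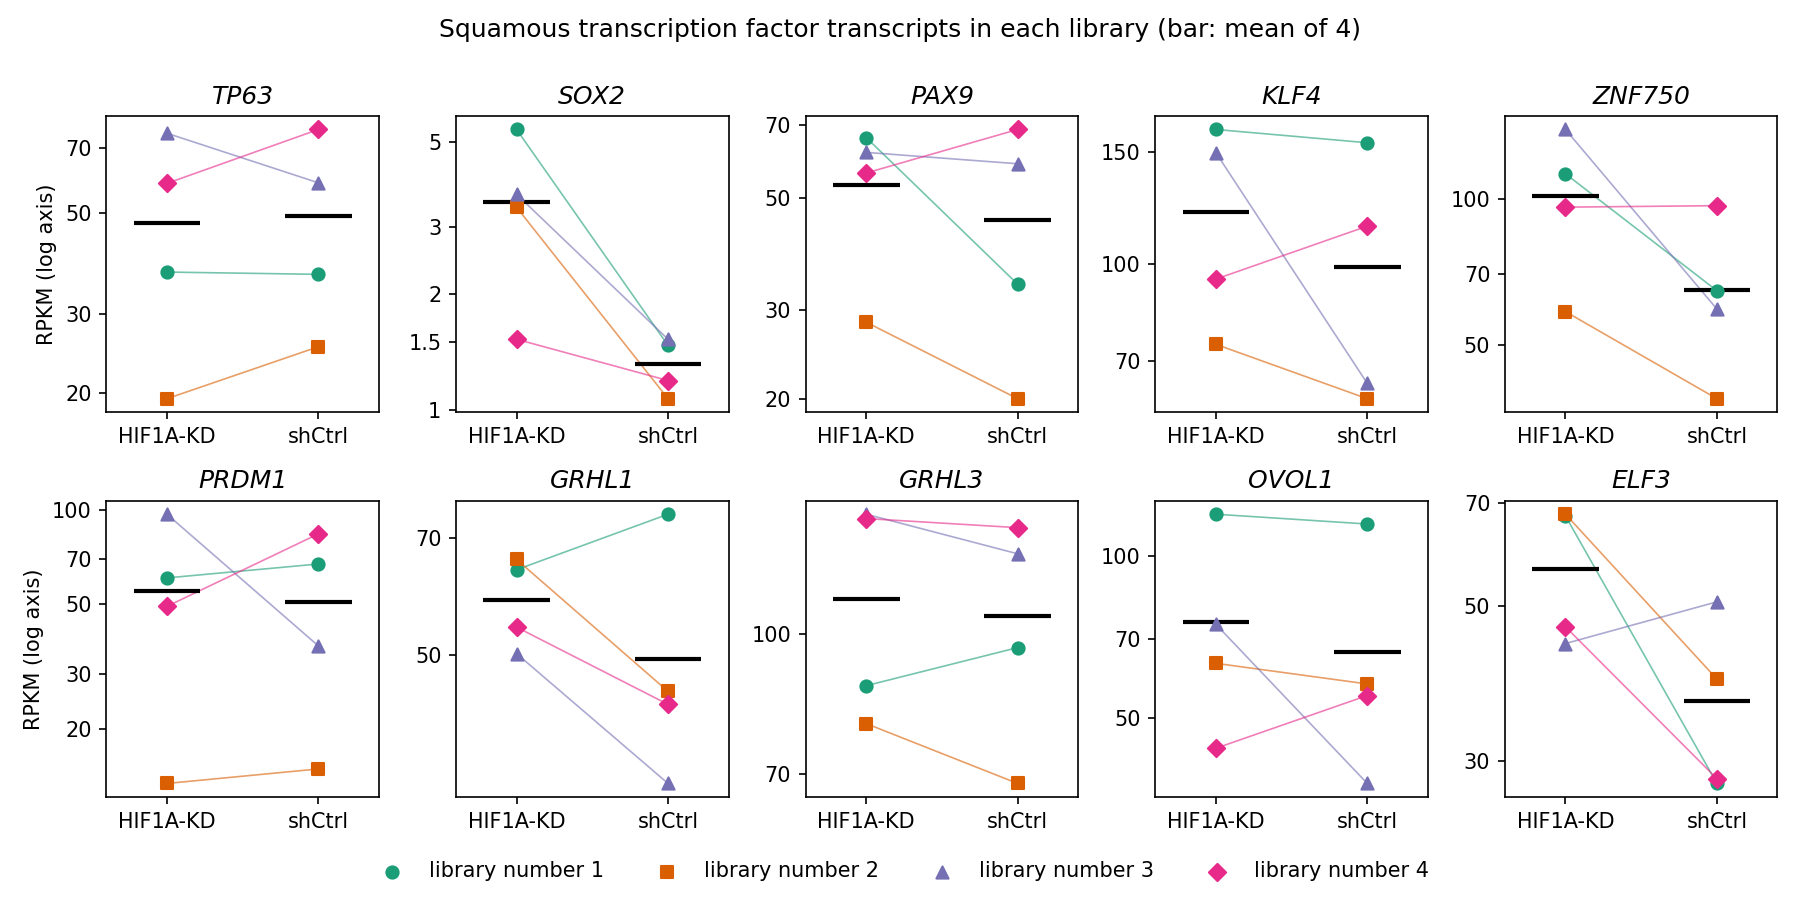
RPKM (log axis) of each of the 10 transcripts in the HIF1A-KD libraries and the shCtrl libraries, with symbols and lines joining libraries of the same number and bars for the mean of 4. The SOX2 libraries of HIF1A-KD averaged 3.48 RPKM against 1.315 RPKM in shCtrl, while the group means of TP63, 47.5 RPKM in HIF1A-KD and 49.3 RPKM in shCtrl, lie close together beside a wide spread over library numbers.

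Among the basal and esophageal identity factors SOX2 was far lower in level, and only TP63 had a negative estimate. None passed the test, and the signs of TP63 and PAX9 reversed when some single libraries were left out. TP63 (chromosome 3, 189349216 to 189615068, plus strand, hg19), which keeps basal cells of stratified epithelia, held 37.1, 19.4, 75.3 and 58.3 RPKM in HIF1A-KD 1 to 4, against 36.6, 25.3, 58.5 and 76.8 RPKM in shCtrl 1 to 4. Both groups had their lowest value in library 2 and their higher values in libraries 3 and 4, and their ranges covered nearly the same span. The log2 change was −0.10 (SE 0.47, limma adjusted p = 0.997), with an interval of the fold (95%) of 0.451 to 1.93, which narrowed to 0.729 to 1.20 with the number as a block. TP63 was higher in HIF1A-KD in 2 of 4 numbers, a count that rests on the uncertain pairing of numbers 3 and 4.

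SOX2 (chromosome 3, 181429712 to 181432223, plus strand), an HMG-box factor that in mouse specifies the esophagus from the foregut, was the lowest of the 10 and had the largest difference. It held 5.38, 3.37, 3.64 and 1.53 RPKM in HIF1A-KD 1 to 4, against 1.47, 1.07, 1.53 and 1.19 RPKM in shCtrl 1 to 4. It was higher in HIF1A-KD in 4 of 4 numbers, as were 18.6% of tested genes, and HIF1A-KD 4 alone sat at the level of the shCtrl libraries. The count rests on the uncertain pairing of numbers 3 and 4, since HIF1A-KD 4 and shCtrl 3 held the same 1.53 RPKM. The log2 change was 1.23 (SE 0.36, a fold of 2.34 with an interval of 1.34 to 4.10; limma adjusted p = 0.348 unpaired and 0.0847 with the block). The two-sided exact permutation p was 0.0571, and 4 libraries against 4 cannot go below 0.0286. With the block it passed when HIF1A-KD 4 (1.52, adjusted p = 0.0383) or shCtrl 4 (adjusted p = 0.0348) was left out. Both fits rest on the same numbers 1, 2 and 3 and give the same log2 change. With any other library left out, the blocked limma adjusted p rose, to between 0.139 and 0.344. The values rest on 146 to 616 reads in HIF1A-KD and 116 to 201 reads in shCtrl, and counting error in the shallowest library was 9.29%. In number 4 the log2 difference was 0.33, on 146 reads in HIF1A-KD and 143 reads in shCtrl. The level of SOX2-OT, a noncoding gene that spans SOX2 on the same strand, was at most 0.0075 RPKM in any library.

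PAX9 (chromosome 14, 37126773 to 37147011, plus strand), a paired-box factor that in mouse is needed for esophageal differentiation, held 66.0, 28.4, 61.7 and 56.15 RPKM in HIF1A-KD 1 to 4, against 33.8, 20.03, 58.6 and 68.5 RPKM in shCtrl 1 to 4. Its difference came from libraries 1 and 2, at 0.73 on the log2 scale on average, while libraries 3 and 4 averaged −0.11. Over all numbers the log2 change was 0.31 (SE 0.42, limma adjusted p = 0.966), and the interval of the fold was 0.649 to 2.38.

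Among the differentiation factors, ZNF750 had a larger estimate than KLF4 and PRDM1. ZNF750 (chromosome 17, 80787310 to 80797931, minus strand), a zinc finger protein that acts downstream of p63 in human keratinocytes, held 113, 58.6, 139 and 96.3 RPKM in HIF1A-KD 1 to 4, against 64.8, 38.8, 59.3 and 97.0 RPKM in shCtrl 1 to 4. Libraries 1, 2 and 3 were higher in HIF1A-KD by 0.80, 0.60 and 1.23 on the log2 scale, and library 4 was level at −0.01. The values for numbers 3 and 4 rest on an uncertain pairing. HIF1A-KD 4 (96.3 RPKM) was above shCtrl 3 (59.3 RPKM), and HIF1A-KD 3 (139 RPKM) was above shCtrl 4 (97.0 RPKM). The log2 change was 0.65 (SE 0.33, a fold of 1.57 with an interval of 0.937 to 2.65; limma adjusted p = 0.727 unpaired and 0.145 with the block). Without shCtrl 4 the blocked fit gave an adjusted p of 0.0486 and without HIF1A-KD 4 it gave 0.0508, both with a log2 change of 0.88. Both fits rest on the same numbers 1, 2 and 3. With any other library left out, the blocked limma adjusted p rose, to between 0.246 and 0.402. TBCD, which runs across ZNF750 on the opposite strand, held 9.36 to 14.8 RPKM in HIF1A-KD and 8.41 to 13.3 RPKM in shCtrl, and the sources used here do not say if reads were counted by strand. The same limit holds for STPG1 across GRHL3 (4.59 to 6.999 RPKM in HIF1A-KD and 5.46 to 10.4 RPKM in shCtrl), while OVOL1-AS1 across OVOL1 and SRGAP2D across ELF3 stayed under 1 RPKM.

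KLF4 (chromosome 9, 110247133 to 110252047, minus strand), a Krüppel-like factor needed for the skin barrier in mouse, held 163, 74.5, 149.8 and 94.5 RPKM in HIF1A-KD 1 to 4, against 155, 61.1, 64.6 and 115 RPKM in shCtrl 1 to 4. Paired by number, library 3 differed by 1.21 on the log2 scale and library 4 by −0.28. Both values rest on the uncertain pairing of numbers 3 and 4. HIF1A-KD 3 (149.8 RPKM) was also above shCtrl 4 (115 RPKM), and HIF1A-KD 4 (94.5 RPKM) was above shCtrl 3 (64.6 RPKM). The log2 change over the groups was 0.32 (SE 0.365, limma adjusted p = 0.955), with an interval of the fold of 0.707 to 2.21.

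PRDM1 (chromosome 6, 106534195 to 106557814, plus strand), the repressor also called BLIMP1 that acts late in keratinocyte differentiation, was the most variable of the 10. It held 60.8, 13.4, 97.0 and 49.3 RPKM in HIF1A-KD 1 to 4, against 67.3, 14.9, 36.9 and 84.0 RPKM in shCtrl 1 to 4. Within HIF1A-KD the highest library was 7.23 times the lowest, and within shCtrl 5.63 times, with library 2 lowest in both. The log2 change was 0.08 (SE 0.68, limma adjusted p = 0.998), an estimate that turned to −0.41 without shCtrl 2, −0.29 without HIF1A-KD 3 and −0.07 without HIF1A-KD 1, and the interval of the fold, 0.367 to 3.05, was the widest of the 10.

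The paralogs GRHL1 and GRHL3 behaved differently across libraries. GRHL3 (chromosome 1, 24645812 to 24690970, plus strand), which in mouse is needed for barrier formation and controls the envelope-linking enzyme gene Tgm1, held 87.7, 79.6, 136 and 134.5 RPKM in HIF1A-KD 1 to 4, against 96.7, 68.3, 123 and 131 RPKM in shCtrl 1 to 4. Its log2 change of 0.06 (SE 0.27, limma adjusted p = 0.997) turned to −0.001 under median-of-ratios scaling, and with the block the interval of the fold, 0.895 to 1.22, was the narrowest of the 10 on the log2 scale. GRHL1 (chromosome 2, 10091792 to 10142412, plus strand), which in mouse supports desmosomal cadherin expression, held 63.8, 65.8, 50.2 and 54.1 RPKM in HIF1A-KD 1 to 4, against 74.9, 45.0, 34.55 and 43.4 RPKM in shCtrl 1 to 4. HIF1A-KD libraries 2, 3 and 4 were above their shCtrl partners and library 1 was below, with a log2 change of 0.29 (SE 0.24, limma adjusted p = 0.894; interval of the fold 0.842 to 1.78). The ratio of GRHL3 to GRHL1 was 1.37, 1.21, 2.71 and 2.48 in HIF1A-KD 1 to 4, against 1.29, 1.52, 3.56 and 3.03 in shCtrl 1 to 4, so it was higher in libraries 3 and 4 than in 1 and 2 of either group.

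OVOL1 (chromosome 11, 65554505 to 65564690, plus strand), a zinc finger repressor that restrains proliferation of mouse suprabasal cells, held 119, 63.1, 74.6 and 43.9 RPKM in HIF1A-KD 1 to 4, against 114.5, 57.8, 37.8 and 55.0 RPKM in shCtrl 1 to 4. Library 1 was the highest of both groups. The log2 change was 0.21 (SE 0.38, limma adjusted p = 0.985; interval of the fold 0.636 to 2.11), and it was −0.04 without HIF1A-KD 1 and −0.02 without shCtrl 3. ELF3 (chromosome 1, 201979690 to 201986315, plus strand), an epithelial ETS factor that activates SPRR genes, held 67.2, 67.6, 44.2 and 46.7 RPKM in HIF1A-KD 1 to 4, against 27.9, 39.3, 50.7 and 28.3 RPKM in shCtrl 1 to 4. The HIF1A-KD libraries were above every shCtrl library except shCtrl 3, which exceeded HIF1A-KD 3 and 4. The log2 change was 0.64 (SE 0.25, a fold of 1.56 with an interval of 1.06 to 2.30; limma adjusted p = 0.536 unpaired and 0.191 with the block). With the block it passed without HIF1A-KD 3 (0.92, adjusted p = 0.0459) and without shCtrl 3 (adjusted p = 0.0471). Both fits rest on the same numbers 1, 2 and 4 and give the same log2 change. With any other library left out, the blocked limma adjusted p rose, to between 0.300 and 0.495.

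**Figure D2:**
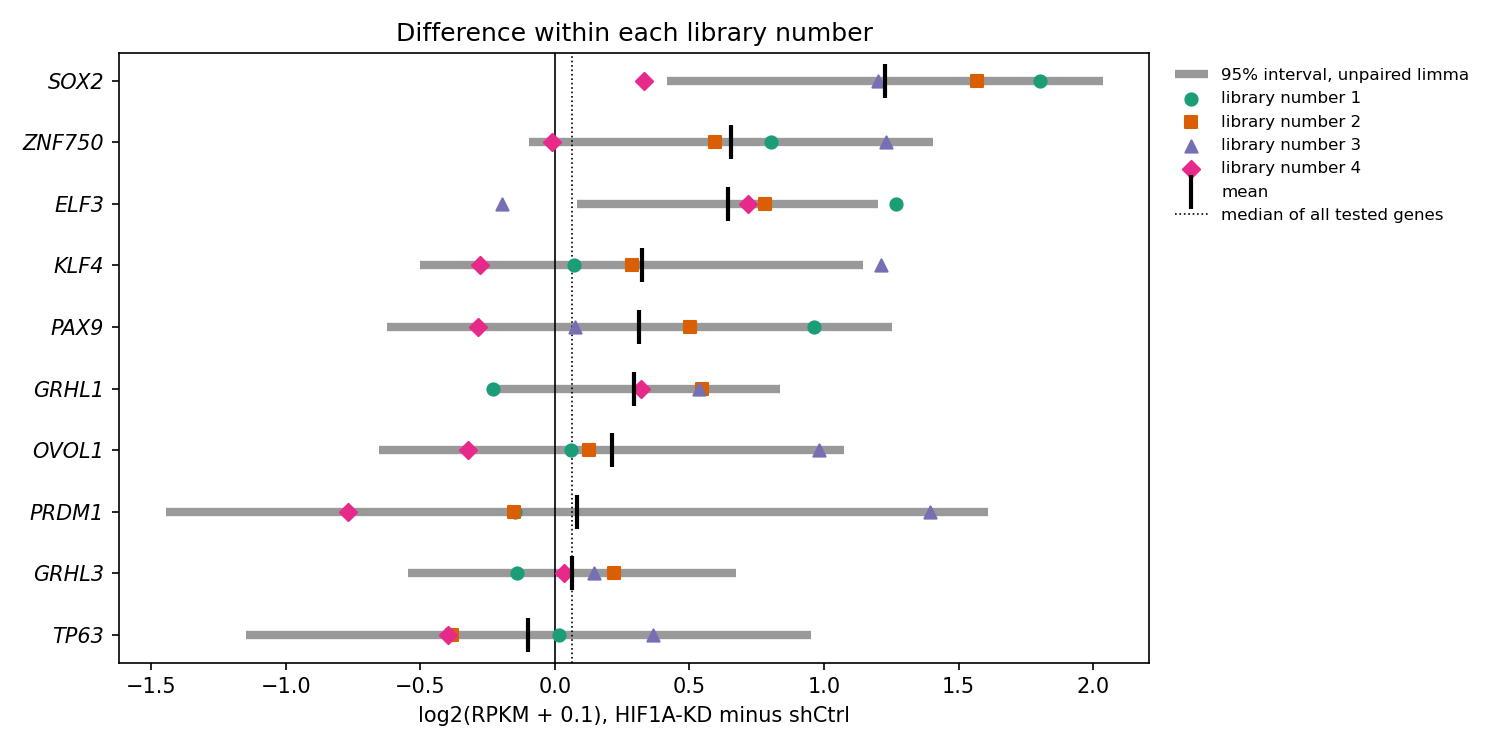
Difference of log2(RPKM + 0.1), HIF1A-KD minus shCtrl, for each library number (symbols), with the mean (black tick) and the 95% interval of the unpaired limma fit (grey bar), and the median of all tested genes as a dotted line. SOX2 lies to the right of 0 in all 4 numbers, and the single numbers of PRDM1 run from −0.77 to 1.39.

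Library number took a larger raw share of the variation of most of these transcripts than group did. The sum of squares of log2(RPKM + 0.1) over the 8 libraries was divided into group, number and remainder. Number has more levels than group, so even random variation gives it a larger raw share. The shares were not corrected for this and do not rank the effects. Number took 95.7% for GRHL3, 94.1% for TP63, 84.2% for PRDM1, 79.4% for PAX9 and 78.2% for OVOL1. Group took the larger share for SOX2, 63.0% against 24.0% for number, and for ELF3, 49.7% against 16.7%. For ZNF750 group took 33.1% and number 51.4%, for GRHL1 18.3% and 60.6%, and for KLF4 8.82% and 65.3%. The median share of number was 71.8% over the members and 66.4% over all tested genes, and the median share of group was 7.60% and 8.32%, so the members as a set lay near the rest of the genes. Library 2 was the lowest of both groups for 6 of the 10 (TP63, PAX9, KLF4, GRHL3, ZNF750 and PRDM1).

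**Figure D3:**
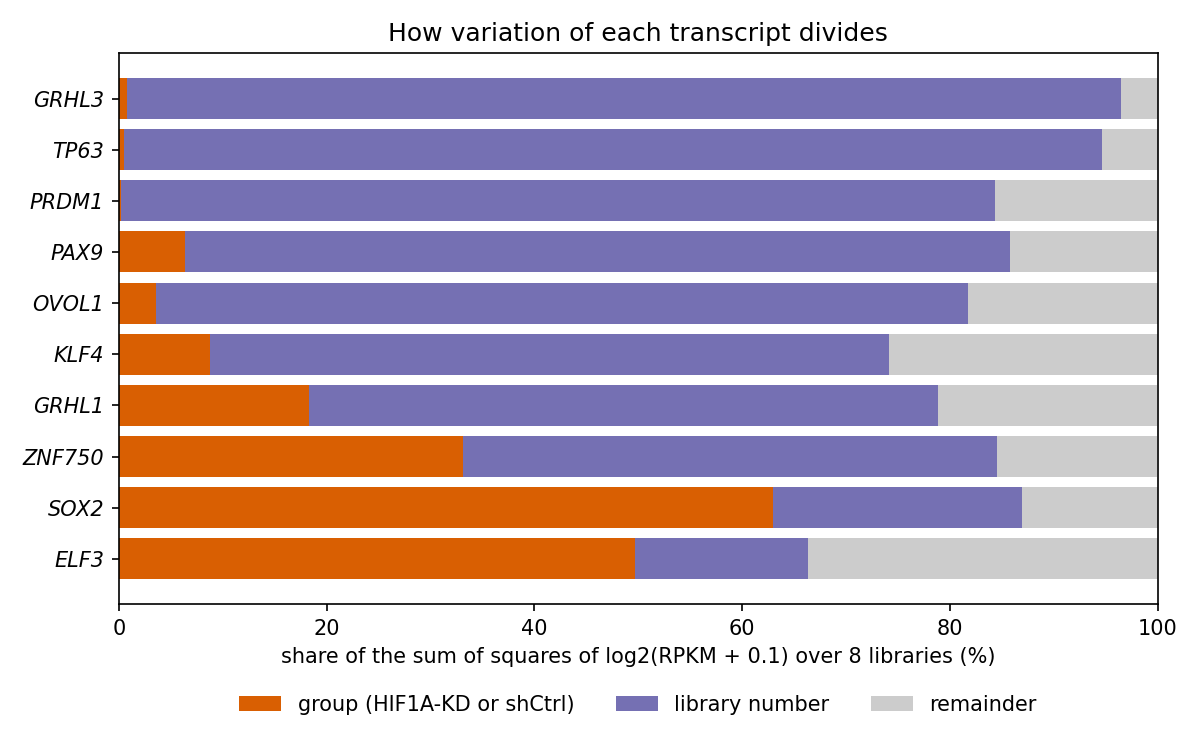
Share of the sum of squares of log2(RPKM + 0.1) over 8 libraries that goes with group (orange), library number (purple) and the remainder (grey), for each transcript. Number takes 95.7% for GRHL3 and 94.1% for TP63, and group takes 63.0% for SOX2. The shares are raw, and number has more levels than group, which favours number.

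Numbers 1 and 2 kept the same order in HIF1A-KD as in shCtrl for 9 of the 10 genes, and for 78.5% of all tested genes. Numbers 3 and 4 took the opposite order for 8 of the 10, and for 66.1% of all tested genes. Thus TP63 was 75.3 and 58.3 RPKM in HIF1A-KD 3 and 4, against 58.5 and 76.8 RPKM in shCtrl 3 and 4, and PRDM1, KLF4 and OVOL1 crossed in the same way. The exceptions were SOX2 and GRHL1.

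Each of the 7 differentiation factors was also set against TP63 within its library, a ratio that a common scaling of a library cannot change, and the factors did not move alike. These ratios were chosen after the values were seen and are given without a test. The ratio was higher in HIF1A-KD in 4 of 4 numbers for ZNF750, KLF4 and OVOL1, in 3 of 4 for ELF3 and GRHL1, and in 2 of 4 for GRHL3 and PRDM1. These counts pair libraries by number, which is uncertain for numbers 3 and 4. The share of all tested genes with such a ratio higher in 4 of 4 numbers was not computed. Without a ratio it was 18.6%, and ZNF750, KLF4 and OVOL1 alone were each higher in 3 of 4. The divisor TP63 was lower in HIF1A-KD in numbers 2 and 4, which raises any ratio to it there. ZNF750 was 3.05, 3.02, 1.85 and 1.65 times TP63 in HIF1A-KD 1 to 4, against 1.77, 1.53, 1.015 and 1.26 times in shCtrl 1 to 4, with HIF1A-KD 4 below shCtrl 1. KLF4 was 4.40, 3.84, 1.99 and 1.62 times TP63 in HIF1A-KD, against 4.24, 2.41, 1.11 and 1.49 times in shCtrl. OVOL1 was 3.22, 3.25, 0.991 and 0.753 times TP63 in HIF1A-KD, against 3.12, 2.28, 0.646 and 0.717 times in shCtrl. For KLF4 and OVOL1 libraries 1 and 2 were above 3 and 4 in both groups, and the groups overlapped widely. ELF3 was 1.81, 3.48, 0.587 and 0.8004 times TP63 in HIF1A-KD, against 0.761, 1.55, 0.866 and 0.369 times in shCtrl. GRHL1 was 1.72, 3.39, 0.666 and 0.928 times TP63 in HIF1A-KD, against 2.04, 1.78, 0.591 and 0.565 times in shCtrl. ELF3 was lower in number 3 and GRHL1 in number 1. GRHL3 was 2.37, 4.10, 1.81 and 2.31 times TP63 in HIF1A-KD, against 2.64, 2.70, 2.10 and 1.71 times in shCtrl. PRDM1 was 1.64, 0.691, 1.29 and 0.846 times TP63 in HIF1A-KD, against 1.84, 0.589, 0.630 and 1.09 times in shCtrl. Both of these ratios went in different directions in different numbers.

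**Figure D4:**
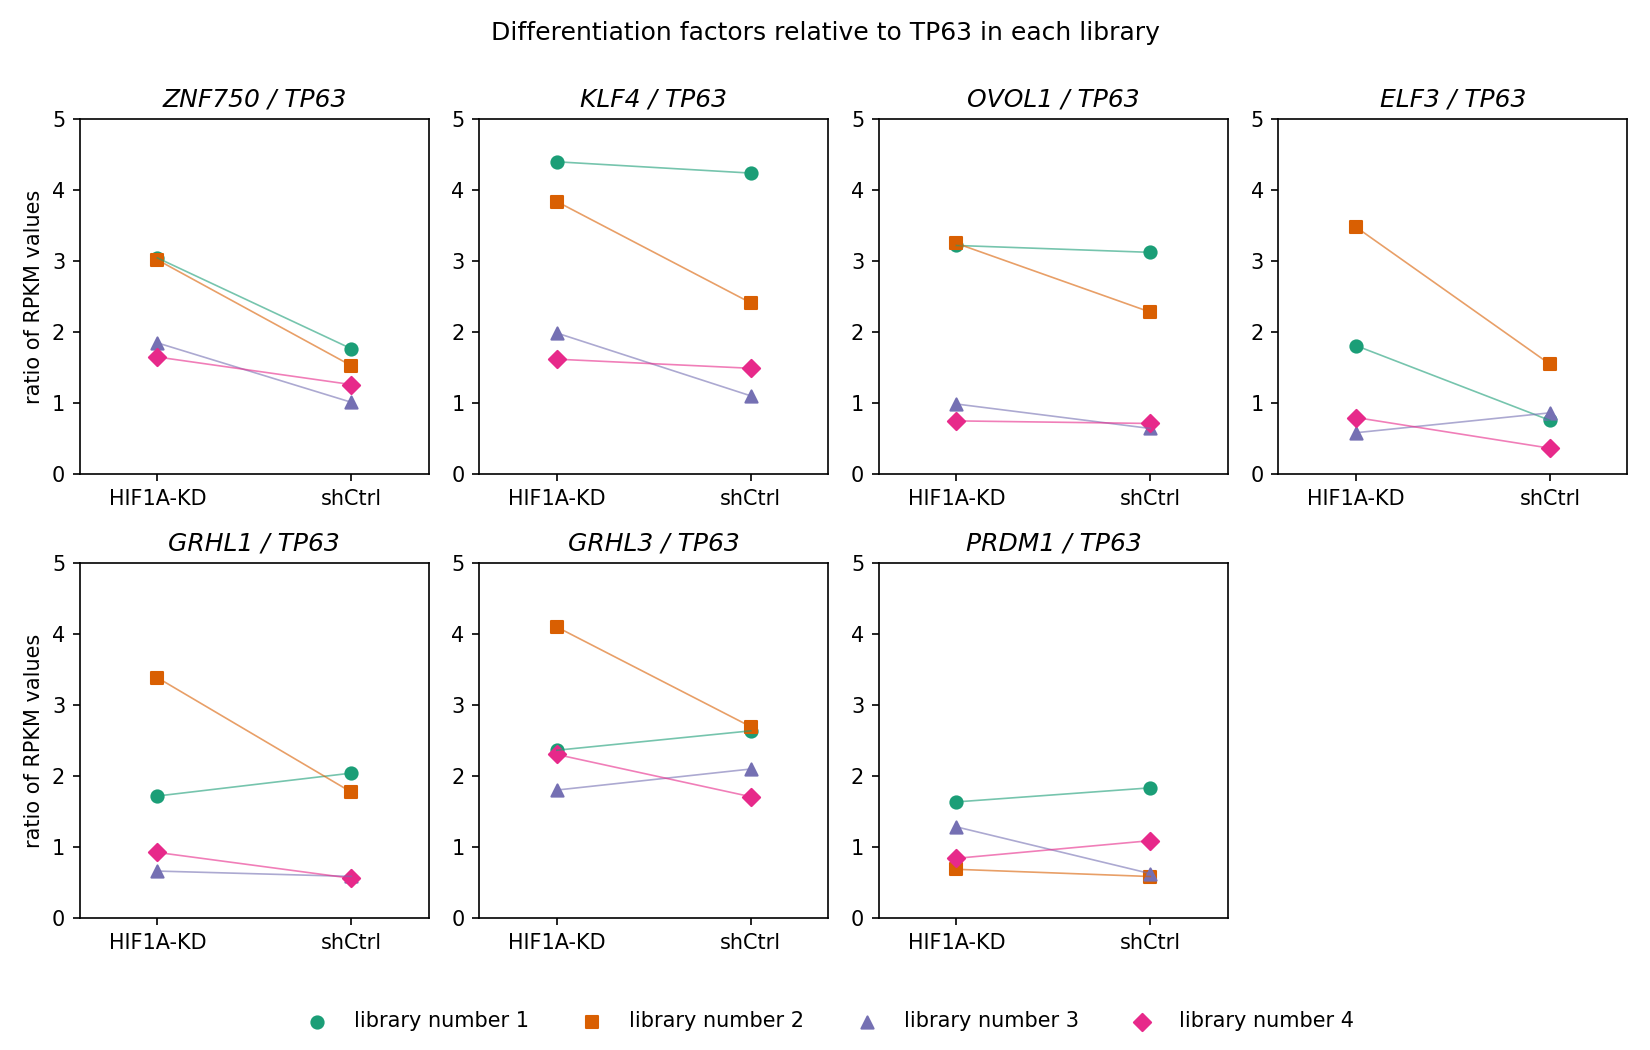
Ratio of the RPKM of each of the 7 differentiation factors to that of TP63 in each HIF1A-KD and shCtrl library, joined by library number. The ZNF750 ratio is 1.65 to 3.05 in HIF1A-KD and 1.015 to 1.77 in shCtrl, while GRHL3 and PRDM1 are each higher in HIF1A-KD in 2 numbers and lower in 2.

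By level per length, 9 of the 10 factors were among the more abundant transcripts and SOX2 was not. In HIF1A-KD the order of mean RPKM was KLF4 (120.5 ± 42.7, SD, n = 4), GRHL3 (109 ± 29.98), ZNF750 (102 ± 33.8), OVOL1 (75.3 ± 32.05), GRHL1 (58.5 ± 7.52), ELF3 (56.4 ± 12.7), PRDM1 (55.1 ± 34.45), PAX9 (53.1 ± 16.9), TP63 (47.5 ± 24.4) and SOX2 (3.48 ± 1.575). In shCtrl it was GRHL3 (105 ± 28.5), KLF4 (98.9 ± 44.9), OVOL1 (66.3 ± 33.3), ZNF750 (65.0 ± 24.1), PRDM1 (50.8 ± 30.8), GRHL1 (49.5 ± 17.6), TP63 (49.3 ± 22.9), PAX9 (45.2 ± 22.3), ELF3 (36.5 ± 10.8) and SOX2 (1.315 ± 0.220). The ranges of all neighbours overlapped in both groups except those above SOX2, which was separate from TP63 in HIF1A-KD and from ELF3 in shCtrl. Among tested genes SOX2 stood at percentile 30.7 of mean RPKM in HIF1A-KD and 13.5 in shCtrl, and GRHL3 at 95.55 and 95.3.

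Other transcription factors of squamous or other epithelium were not called either. Of 44 listed genes 40 could be tested and 0 passed in the unpaired or the blocked fit. Of all tested genes 0.0420% passed unpaired and 1.83% with the block, so a count of 0 does not set this list apart. There were 20 estimates above 0, 20 below and a median log2 change of 0.01. The abundant HOPX, a homeodomain protein of stratifying epithelia, held 548 ± 218 RPKM in HIF1A-KD and 496 ± 84.0 RPKM in shCtrl (SD, n = 4 each; limma adjusted p = 0.997), and PITX1 held 303 ± 109.5 RPKM in HIF1A-KD and 304 ± 80.7 RPKM in shCtrl (adjusted p = 0.998). Of 6 factors of the mesenchymal state 2 could be tested. SNAI2, which represses epithelial cadherin genes, held 77.1 ± 33.2 RPKM in HIF1A-KD and 97.1 ± 41.1 RPKM in shCtrl (log2 change −0.34, limma adjusted p = 0.941), TWIST2 held 4.34 ± 1.94 RPKM in HIF1A-KD and 3.02 ± 1.38 RPKM in shCtrl, and the other 4 averaged under 1 RPKM over the libraries.

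**Figure D5:**
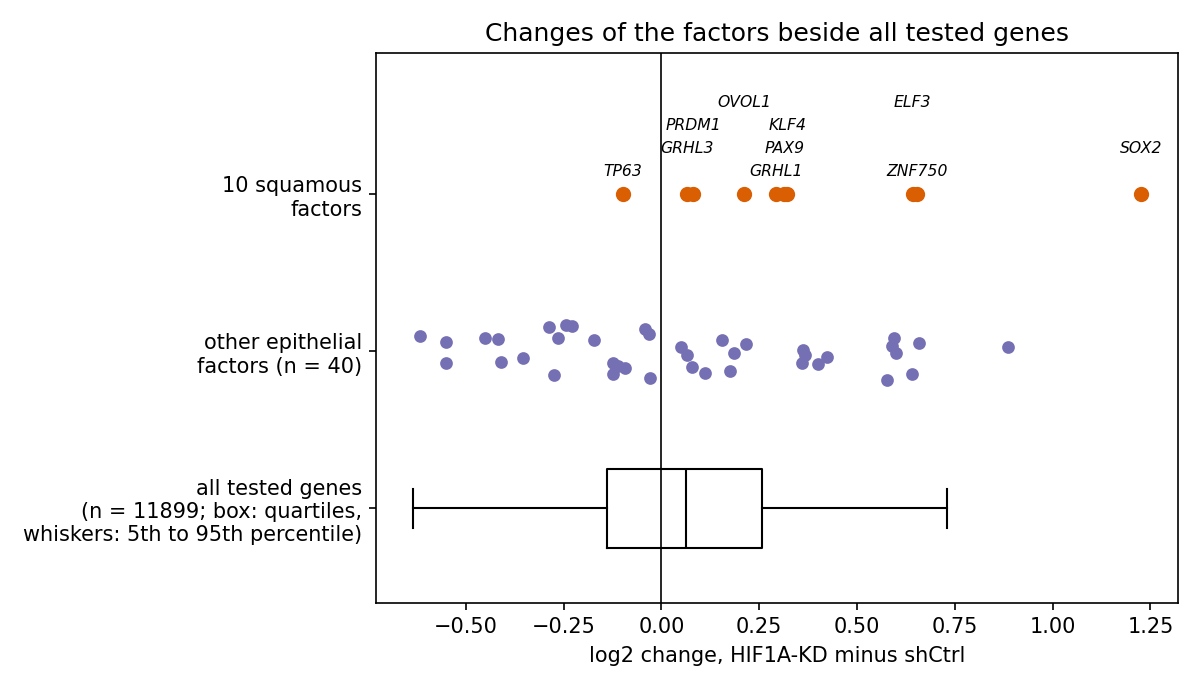
Log2 change, HIF1A-KD minus shCtrl, of the 10 squamous factors, of 40 other epithelial factors (points spread vertically at random) and of all 11899 tested genes (box for quartiles, whiskers from the 5th to the 95th percentile). SOX2, at 1.23, lies beyond the whisker, and the other 9 lie within it.

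Genes listed as linked to these factors had estimates in both directions in the same comparison. Of 19 tested basal genes linked to TP63, 0 were called unpaired and 1 fell with the block, against 1.83% of all tested genes called with the block, and 12 estimates were below 0 with a median log2 change of −0.06. That gene was CDH3, which encodes the basal P-cadherin, at 42.7, 63.7, 85.0 and 82.8 RPKM in HIF1A-KD 1 to 4, against 71.1, 127, 143 and 139.6 RPKM in shCtrl 1 to 4 (log2 change −0.81, limma adjusted p = 0.0163 with the block and 0.498 unpaired). It was lower in HIF1A-KD in 4 of 4 numbers, while the groups overlapped. The basal keratins KRT5 (4977 ± 381 RPKM in HIF1A-KD and 5261 ± 991 RPKM in shCtrl, SD, n = 4 each; limma adjusted p = 0.988) and KRT14 (4762 ± 566 RPKM in HIF1A-KD and 4347 ± 593 RPKM in shCtrl; adjusted p = 0.965) did not pass. CDH1, the gene of E-cadherin and a member of the squamous marker list, fell with the block in parallel, at 95.2 ± 35.8 RPKM in HIF1A-KD and 159 ± 36.8 RPKM in shCtrl (log2 change −0.79, limma adjusted p = 0.0318 with the block and 0.545 unpaired). Of 33 tested differentiation genes linked to KLF4, ZNF750, the grainyhead-like factors or PRDM1, 0 were called unpaired, and 2 rose (SPRR1A and KRT10) and 1 fell (CDSN) with the block, again beside 1.83% of all tested genes, with a median log2 change of 0.14. KRT10, an early suprabasal keratin, held 1658, 442, 953 and 539.5 RPKM in HIF1A-KD 1 to 4, against 176, 129.7, 133 and 212 RPKM in shCtrl 1 to 4 (limma adjusted p = 0.0432 with the block and 0.0873 unpaired), and its groups did not overlap. SPRR1A, a cornified envelope precursor, averaged 2920 ± 471 RPKM in HIF1A-KD and 1143 ± 264 RPKM in shCtrl (SD, n = 4 each; limma adjusted p = 0.0113 with the block and 0.0629 unpaired), higher in 4 of 4 numbers. CDSN, the gene of corneodesmosin, held 13.9, 3.84, 3.08 and 1.99 RPKM in HIF1A-KD 1 to 4, against 142, 29.5, 13.5 and 12.1 RPKM in shCtrl 1 to 4 (limma adjusted p = 0.00488 with the block and 0.370 unpaired). CDSN fell in every number, and HIF1A-KD 1 overlapped shCtrl 3 and 4. The most abundant of the list were not called in either fit. SPRR1B held 6242 ± 1978 RPKM in HIF1A-KD and 6892 ± 2354 RPKM in shCtrl (limma adjusted p = 0.541 with the block). SPRR3 held 5784 ± 992 RPKM in HIF1A-KD and 2243 ± 1277 RPKM in shCtrl (limma adjusted p = 0.107 with the block), higher in 4 of 4 numbers.

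Profiles most like those of the members were sought by the root mean square difference of log2(RPKM + 0.1) over the 8 libraries, each gene centred on its own mean. For TP63 the nearest genes were CADM1 (0.12), MANSC1 (0.14) and ALDH1L2 (0.14), where the median gene was 0.78 away. For ZNF750 they were AKAP9 (0.09), PAIP2B (0.14) and TRPS1 (0.14), with a median of 0.66, and for KLF4 they were PRDM10 (0.11), PCNT (0.13) and REV3L (0.14), with a median of 0.65. For SOX2 SLC25A42 (0.29), EPHX1 (0.32) and NDRG2 (0.33) were nearest, with a median of 0.83. For PAX9 the nearest was LINC00263 (0.20), for OVOL1 DUSP8 (0.13) and for PRDM1 GLI3 (0.26). GRHL1, GRHL3 and ELF3 varied too little (SD under 0.5) to be ranked. With 8 libraries and 11899 genes near profiles are found for many genes.

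The authors' deposited table, made from the same libraries, lists 2 of the 10 at an adjusted p of 0.05, both higher in HIF1A-KD, where 9.02% of its 13627 genes are listed in either direction and 3.94% as higher. In the authors' deposited table SOX2 has mean normalised reads of 402 in HIF1A-KD and 162 in shCtrl, with a log2 fold change of 1.31 (adjusted p = 0.00261). ZNF750 has 14970 in HIF1A-KD and 10080 in shCtrl in the authors' deposited table, with a log2 fold change of 0.57 (adjusted p = 0.0266). In the authors' deposited table ELF3 has a log2 fold change of 0.55 (adjusted p = 0.139), GRHL1 0.17 (0.567), KLF4 0.20 (0.625), PAX9 0.15 (0.621), OVOL1 0.10 (0.801), PRDM1 0.03 (0.996), GRHL3 −0.01 (0.987) and TP63 −0.13 (0.593). Of the 41 other squamous or epithelial factors in the authors' deposited table it lists 2, BARX2 as higher and FOXQ1 as lower, both named after their values were seen. In the authors' deposited table the gene lists linked to these factors have higher shares than the 9.02% of all its genes: 6 of 20 basal genes linked to TP63 (2 higher and 4 lower) and 12 of 34 differentiation genes (8 higher and 4 lower). These lists were chosen with earlier results of these data known, so the higher shares are not independent of the choice. The unpaired limma estimates for SOX2 and ZNF750, 1.23 and 0.65, were close to the fold changes in the authors' deposited table, while the adjusted p-values were not.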

How the data were processed

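RNA of 4 HIF1A-KD and 4 shCtrl libraries was sequenced. Per the labels' protocols, libraries were made with an NEB Next Ultra RNA kit. The submitters' processing notes name HTSeq 0.6.1, TopHat2 2.0.13 and Bowtie2 2.2.3.0 among their tools, and the builds hg19 and hg38 with no role. Because the deposited coordinates use hg19 haplotype contig names, gene positions are given as hg19.

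The deposited table called raw counts holds RPKM per gene and library, so the main test was made on log values and not with a count model. The authors also deposited a comparison with a signal (mean normalised reads) for each group, the fold ratio, log2 ratio and p-values, made with a tool that the sources do not name. Multiplied by length, RPKM fell on whole multiples of 1 read (tolerance 0.01), which gave the reads. Read numbers cover counting error only.

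Testing was with limma 3.58.1 in R 4.3.3, two-sided and unpaired, after adding 0.1 RPKM and taking log2, with trended and robust moderation. A gene entered if 4 or more libraries had 0.5 RPKM, and the threshold was an adjusted p of 0.05. Exact permutation tests used SciPy 1.17.1. Members and lists were chosen with earlier results of these data known. From each list the text names genes called in either fit (up to 6). The 2 most abundant were also picked from each list, but the text leaves some of them out. The fits were tested on simulated data. Every same-numbered pair of simulated libraries shared its deviation, so the simulation does not cover the uncertain pairing described below.

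Same-numbered libraries deviated together from their group means (r across genes 0.754 for number 1, 0.730 for 2, 0.252 for 3 and 0.257 for 4, all over the limit of 0.1), so number was used as a pairing block, on the data and not on a label. For HIF1A-KD 4 and shCtrl 3 the correlation was 0.463, and for HIF1A-KD 3 and shCtrl 4 it was 0.613, both above those of their own numbers. The pairing of numbers 3 and 4 is therefore uncertain.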

Additional observations from a re-analysis of the deposited data

How the results depend on the processing

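For the count of members called, 0 was also the value with the replicate block, with pseudocounts of 1 and 0.01, without a filter, with a stricter filter (1 RPKM in all 8 libraries), under median-of-ratios scaling, by limma-voom on recovered reads and with a term for libraries 1 and 2 against 3 and 4. Leaving out each library in turn gave 0 to 2, and values above 0 came only with the block. The count over all tested genes was 5 as reported and 218 with the replicate block, 3 with each other pseudocount and by limma-voom, 1 without a filter, 11 with the stricter filter, 8 under median-of-ratios scaling and 102 with the term for the library split. Leaving out each library gave 0 to 3 unpaired and 1 to 239 with the replicate block (HIF1A-KD 1 to 4 left out: 33, 1, 204 and 180; shCtrl 1, 3 and 4 left out: 20, 213 and 239).

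The direction of SOX2, ZNF750, ELF3, KLF4 and GRHL1 held in all 24 alternatives, with log2 changes of 0.88 to 1.56, 0.43 to 0.90, 0.43 to 0.92, 0.03 to 0.58 and 0.14 to 0.51. It reversed for GRHL3 under median-of-ratios scaling (−0.0012) and, when single libraries were left out, for GRHL3 (−0.13 to 0.20), OVOL1 (−0.045 to 0.51, with −0.042 without HIF1A-KD 1), PAX9 (−0.025 to 0.59), PRDM1 (−0.41 to 0.66, with −0.36 for the replicate block without number 3) and TP63 (−0.38 to 0.27). The cause was not tested. Depth limits SOX2 most, with 116 reads in its shallowest library. In 22 groups of 4 libraries no value stood apart by Dixon's test.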

Other observations

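Most proliferation genes and genes of columnar epithelium were low in the cultures. Of 18 cell cycle genes 11 averaged under 1 RPKM, with a summed level of 48.1 to 62.4 RPKM in HIF1A-KD and 55.8 to 77.1 RPKM in shCtrl. Of the 8 that were tested 0 were called in the unpaired or the blocked limma fit, against 0.0420% and 1.83% of all tested genes. There were 6 estimates below 0 and a median log2 change of −0.25. The most abundant, PCNA, held 32.5 ± 9.42 RPKM in HIF1A-KD and 38.0 ± 5.42 RPKM in shCtrl (SD, n = 4 each).

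Of the 18 columnar or intestinal genes measured, 14 averaged under 1 RPKM, and CDX2, GATA4, TFF2, TFF3, MUC2 and MUC6 were listed at 0 in all 8 libraries. The sum of the list was 69.2 to 113 RPKM in HIF1A-KD and 72.5 to 107 RPKM in shCtrl, mostly the simple-epithelial keratins KRT18 (72.4 ± 17.3 RPKM in HIF1A-KD and 62.4 ± 12.9 RPKM in shCtrl, SD, n = 4 each) and KRT8 (15.1 ± 2.47 RPKM in HIF1A-KD and 19.5 ± 6.89 RPKM in shCtrl). Of the 5 that were tested 0 were called in either fit, against 0.0420% of all tested genes unpaired and 1.83% with the block.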
